A study of Mus musculus with 6 samples.

Results

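The 9 genes Ager, Hopx, Rtkn2, Akap5, Aqp5, Spock2, Clic3, Gprc5a and Pdpn, which are used to recognise alveolar type 1 (AT1) cells, were followed through the lungs of newborn and weanling mice. They were taken by symbol, as 9 of the 32285 genes counted in every library. No threshold on a measured value was used, but the choice was made with earlier results of these data known. The genes are also textbook markers of the cell class they were read in, so their height in AT1 against other classes is a description and carries no test. The study exposed wild-type C57BL/6N pups of both sexes to hyperoxia (95% oxygen) or to room air (21% oxygen) from postnatal day 1 to day 5, after which all were kept in room air. Lungs were dissociated, live cells were sorted, and single-cell 3′ RNA libraries were made at day 1 and at day 21. There were 6 libraries, each a pool of 3 mice of 1 sex: female and male room air at day 1, female and male room air at day 21, and female and male hyperoxia at day 21. A single pool stood for each sex, age and exposure, so in the fits of exposure and age the sexes stood in for replicates, with sex as a covariate. The p-values of these fits rest on 1 residual degree of freedom and a spread borrowed across genes. They do not measure the spread between mice or between pools of 1 kind. In the comparison of the sexes the pools of each age and exposure stood in for replicates. Day 21 libraries are called room air or hyperoxia below by what the pups breathed on days 1 to 5.

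The air space of the lung is lined by AT1 cells, which are very thin, cover most of the surface and let gas pass to the capillaries, and by alveolar type 2 (AT2) cells, which are cuboidal, make surfactant and can divide and give rise to AT1 cells. Among the 9 genes, Ager encodes the receptor for advanced glycation end products, a membrane protein of the AT1 basal side, and Pdpn encodes podoplanin, a mucin-like membrane glycoprotein that lymphatic endothelium also carries. Aqp5 is a water channel, Clic3 belongs to the chloride intracellular channel family, and Gprc5a is an orphan receptor induced by retinoic acid. Hopx encodes a homeodomain protein that does not itself bind DNA. Rtkn2 binds small GTPases, Akap5 anchors protein kinase A near the membrane, and Spock2 is a secreted proteoglycan of the extracellular matrix.

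The genes lie on 8 chromosomes of the mouse genome build GRCm38, all in protein-coding loci of the GENCODE M21 annotation. Ager (chr17:34597862-34600936, plus strand), Clic3 (chr2:25456838-25458776, plus strand) and Aqp5 (chr15:99590782-99594829, plus strand) are short, with 934, 927 and 1449 intronic bases. Akap5 (chr12:76324891-76334153, plus strand) has 2439 intronic bases. Gprc5a (chr6:135065651-135084709, plus strand) has 16976, Spock2 (chr10:60106219-60135198, plus strand) 23447, Hopx (chr5:77086988-77115121, minus strand) 26618, Pdpn (chr4:143267431-143299564, minus strand) 30317 and Rtkn2 (chr10:67979570-68059740, plus strand) 74624. This length of intron matters below, because reads in introns may have been counted at one age and not at the other. Hopx overlaps the gene Hopxos, Rtkn2 overlaps Gm16212 and Clic3 overlaps Paxx, each on the other strand, and Spock2 contains Mir6906 on its own strand. Whether reads of a neighbour entered the counts was not tested.

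RefSeq promoter windows of build GRCm38.p6, the 250 bases before a transcription start, were at hand for 7 of the 9 genes, in 8 windows. Of these the Aqp5 window lies in the annotated gene for 246 of its bases and that of Clic3 for 5, and the other of the 2 Hopx windows (chr5:77095268-77095517) lies within the Hopx locus. They were searched on both strands for GGAATG, a core bound by TEAD factors, and for CAAGTG and CTTGAG, cores of the kind bound by NKX2-1, the lung epithelial homeodomain factor. On opposite strands the last 2 can share their 4 letters CAAG. The core CTTGAG was present in 2 of the 8 windows, those of Hopx and Spock2, and in 13.3% of the 32851 windows of the genome. Neither GGAATG (12.6% of all windows) nor CAAGTG (11.6%) was found in the 8. The stretches before Hopx (chr5:77115124-77115373, minus strand) and Spock2 (chr10:60106007-60106218, plus strand, without the 38 bases of the window that lie in the gene) are printed with the CTTGAG match in capitals, and that of Ager (chr17:34597600-34597849, plus strand), where no core was matched, stands beside them for comparison.
Hopx: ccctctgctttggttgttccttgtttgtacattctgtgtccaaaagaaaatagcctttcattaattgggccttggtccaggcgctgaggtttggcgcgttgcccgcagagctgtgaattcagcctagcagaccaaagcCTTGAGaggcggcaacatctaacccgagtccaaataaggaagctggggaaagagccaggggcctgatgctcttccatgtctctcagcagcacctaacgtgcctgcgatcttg
Spock2: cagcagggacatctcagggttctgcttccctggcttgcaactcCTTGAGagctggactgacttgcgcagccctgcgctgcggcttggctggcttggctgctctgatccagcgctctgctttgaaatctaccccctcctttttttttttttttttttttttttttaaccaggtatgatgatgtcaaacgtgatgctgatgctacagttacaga
Ager: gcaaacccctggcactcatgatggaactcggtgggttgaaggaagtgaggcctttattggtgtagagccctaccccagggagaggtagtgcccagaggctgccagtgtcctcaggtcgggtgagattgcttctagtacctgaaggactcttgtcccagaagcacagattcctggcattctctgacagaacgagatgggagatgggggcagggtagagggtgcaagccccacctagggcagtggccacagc
A match in these letters is a description of the sequence and not evidence of a bound site.

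Cell Ranger counted unique molecular identifiers (UMIs), each standing for 1 captured RNA molecule, and the submitters' annotation gave a class to 7074 to 11543 barcodes a library, leaving 22% to 32.8% without one. The AT1 class held 2054 and 1765 cells in the female and male libraries of day 1, but 32 and 14 in female and male room air at day 21 and 40 and 57 in female and male hyperoxia. Median depth of an AT1 cell was 10294 and 9381 UMIs at day 1 and 15102 to 17973 at day 21. Scrublet called 22% of female and 9.92% of male AT1 cells of day 1 doublets, and at most 5 AT1 cells in any day 21 library. Libraries shared at most 0.376% of their barcodes pairwise. In the female hyperoxia library 35.5% of general capillary cells had no UMI of Xist, against 2.86% in female room air of day 21 and 9.90% at day 1. In the AT1 class the share was 42.5%, 28.1% and 12%. Whether the sex label covers all cells of the female hyperoxia library was not tested, and the exposure and sex fits were repeated without the Xist-free cells of that library. Levels are given in CPM, the UMIs of a gene in each 1000000 UMIs of the class in that library, with exact Poisson 95% intervals that cover counting error only.

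The AT1 class of day 21 was not of 1 kind. Foxj1 is the master regulator of motile cilia in airway cells, and 11 of 32 AT1 cells in female room air held 5 or more of its UMIs, as did 5 of 40 in female hyperoxia, 7 of 57 in male hyperoxia and 0 of 14 in male room air. At day 1 such cells numbered 2 and 6. In these cells the 9 genes together made up a median of 0.0806% to 0.163% of UMIs at day 21, against 2.43% to 2.85% in the other AT1 cells. A summed list of 8 airway genes stood at 4259 CPM in the AT1 class of female room air, 1885 in female hyperoxia, 1470 in male hyperoxia and 539 in male room air; without the Foxj1-holding cells it stood at 515, 684, 477 and 539. The share of Foxj1-holding cells thus moved with the library, and AT1 levels are therefore given with and without them. In the remaining AT1 cells a median of all 9 genes was detected per cell in every library, and 51.7% to 81% of the cells held a UMI of each of the 9. Not all of them held Ager: 28 female and 23 male cells of day 1 had no UMI of it. The same was true of 1 cell in female room air and 1 in male hyperoxia at day 21.

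Ager, summed over the whole AT1 class, measured 7516 and 7763 CPM in female and male at day 1, 5619 and 13719 in female and male room air at day 21, and 8650 and 9030 in female and male hyperoxia. Without the Foxj1-holding cells the 4 values of day 21 became 10519, 13719, 10404 and 10905, in the same order. The lowest library, female room air, thereby came to lie among the hyperoxia libraries, and male room air remained the highest, with an interval of 13197 to 14258. A UMI of Ager was found in 98.5% to 98.6% of AT1 cells at day 1, in 68.8% in female room air at day 21 and in 91.2% to 100% in the other 3 libraries. After thinning to 2000 UMIs, with 63 and 89 shallower AT1 cells left out at day 1 and 2 or 3 in each library of day 21, the share was 99.2% to 99.3% at day 1 and 63.3% to 100% at day 21. Neutrophils, taken as a class that should lack Ager, held a UMI of it in 12.4% to 12.6% of cells at day 1 and 4.69% to 6.07% at day 21. Their median depths were 3410 to 5331 UMIs.

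Hopx stood at 3633 and 3515 CPM at day 1, at 2890 and 6268 in female and male room air of day 21, and at 5171 and 4155 in female and male hyperoxia. Leaving out the Foxj1-holding cells moved female room air to 4949 and the hyperoxia pools to 6099 and 4922. All 4 libraries of day 21 then lay above both of day 1. For Rtkn2 the values were 1060 and 1109 at day 1, 1923 and 3879 in room air and 2477 and 2458 in hyperoxia, and without those cells 3600, 3879, 2976 and 2973 at day 21. Every library of day 21 was above both of day 1 in either reading. Pdpn lay higher too, at 207 and 123 CPM at day 1 and at 354 and 661 in room air and 496 and 512 in hyperoxia; without the Foxj1-holding cells its range at day 21 was 596 to 663.

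Akap5 lay lower at day 21. It measured 2109 and 2168 CPM at day 1, 698 and 1221 in female and male room air at day 21, and 892 and 1012 in female and male hyperoxia; without the Foxj1-holding cells the 4 libraries lay between 1074 and 1307, all below day 1. Aqp5 was 1909 and 2034 at day 1, 813 and 1686 in room air and 1503 and 1513 in hyperoxia, and 1523 to 1830 at day 21 without those cells, again below day 1 in each library. Spock2 lay at 568 and 420 CPM at day 1 and at 455 to 830 at day 21, and at 830 to 914 once the Foxj1-holding cells were out. Clic3 was 848 to 1033 at day 1 and 704 to 1110 at day 21, or 883 to 1110 without those cells. Gprc5a was 1418 to 1526 at day 1 and 997 to 1807 at day 21, or 1807 to 2083 without them. With all AT1 cells the ranges of Spock2, Clic3 and Gprc5a at the ages overlapped, and without the Foxj1-holding cells that of Clic3 still did and those of Spock2 and Gprc5a did not.

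**Figure D1:**
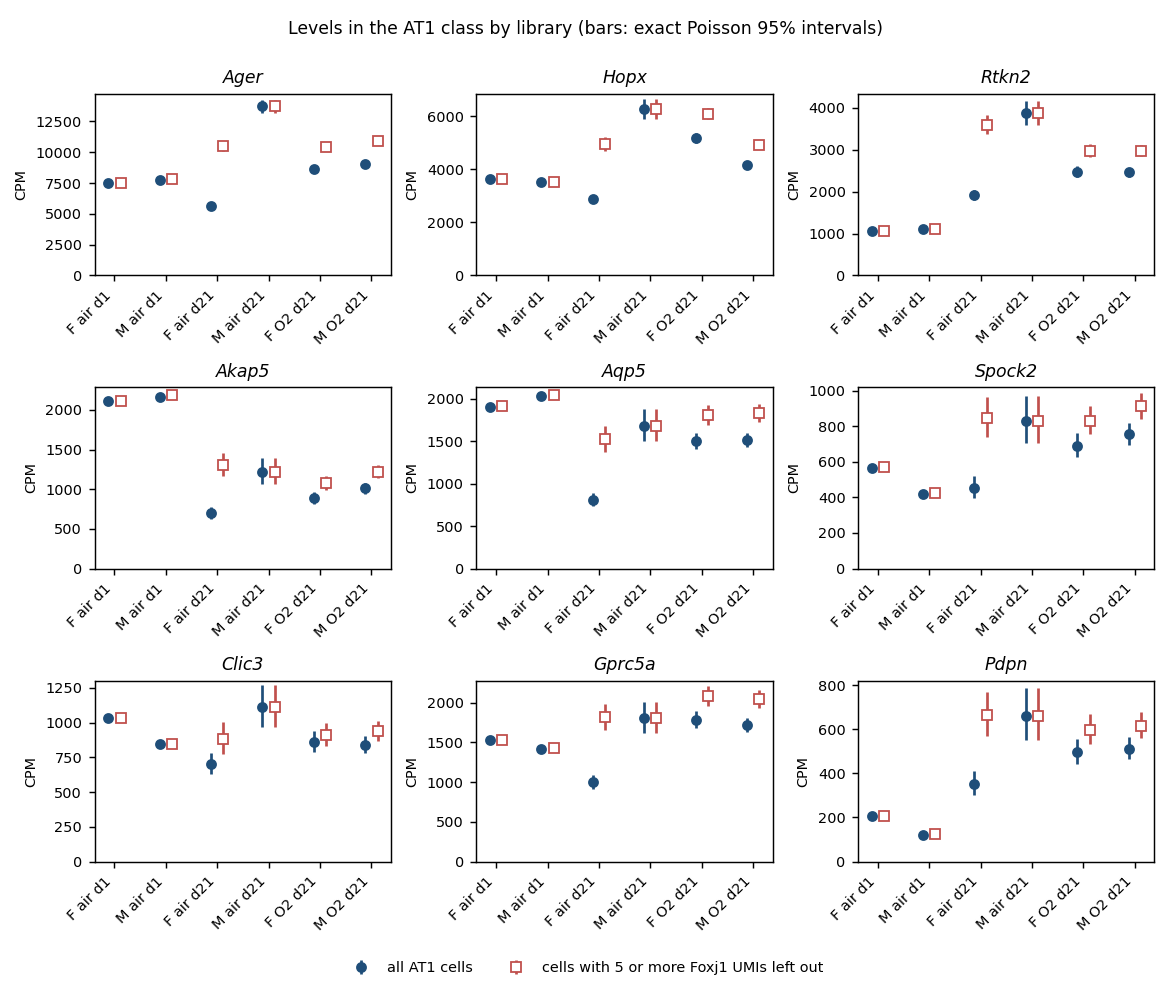
Levels of the 9 genes in the AT1 class of each library, in CPM (linear axes from 0), with all AT1 cells as filled circles and without cells holding 5 or more Foxj1 UMIs as open squares; bars are exact Poisson 95% intervals, F and M are female and male pools, and d is the postnatal day. Female room air at day 21 is the lowest of the day 21 libraries for all 9 genes among all AT1 cells, and for Ager it moves from 5619 to 10519 CPM when the Foxj1-holding cells are left out.

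The plot of AT1 levels by library shows that the open and filled symbols coincide at day 1 and in male room air, where such cells were few or absent, and part in the other 3 libraries.

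In AT2 cells the 9 genes fell into groups of 4 and 5. Ager, Aqp5, Clic3 and Gprc5a were present there at 9.23% to 20.8% of their AT1 level at day 21, while Hopx, Rtkn2, Akap5, Spock2 and Pdpn stood at 1.65% or less. The base of this comparison is the AT1 level of the same library without Foxj1-holding cells. AT2 cells held 9.65% to 12.7% of it for Ager, 13.3% to 14.4% for Aqp5, 12.3% to 20.8% for Clic3 and 9.23% to 11.4% for Gprc5a over the 4 libraries of day 21. For Hopx the range was 0.210% to 1.16%, for Rtkn2 0 to 0.357%, for Akap5 0.540% to 1.65%, for Spock2 0.196% to 1.59% and for Pdpn 0.594% to 1.20%. The 2 groups were drawn from these same values, so their lack of overlap in these libraries describes the split and is no test of it. The AT2 class held 133 cells in female room air, 59 and 84 in female and male hyperoxia and 7 in male room air, so that in the last the 0 UMIs of Rtkn2 and the 1 UMI each of Akap5 and Pdpn limit the values.

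Neutrophils served as a class that should lack these genes; other classes held more Ager. They stood at 0.0735% to 0.112% of AT1 for Ager, 0.0214% to 0.0339% for Aqp5, 0.0332% to 0.0956% for Clic3 and 0.00982% to 0.0323% for Gprc5a at day 21. For Hopx they stood at 0.581% to 0.933%, which overlapped the AT2 range. Akap5 (0.0885% to 0.122%), Spock2 (0.0492% to 0.131%) and Pdpn (0.274% to 0.509%) were lower in neutrophils than in AT2 cells of the same library in 4 of 4 libraries, and Rtkn2 (0.0325% to 0.0953%) in 3 of 4. In single AT2 cells thinned to 2000 UMIs, with at most 1 shallower cell a library left out, Ager was found in 84.5% to 93.1% of cells at day 21 and Gprc5a in 28.6% to 34.1%, but Rtkn2 and Spock2 in none of 132, 7, 58 and 84 cells (female and male room air, female and male hyperoxia), and Pdpn in at most 1.72%.

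The same division was seen at day 21 in barcodes that the annotation left without a class. Between 175 and 301 unassigned barcodes in each library of day 21 had Sftpc, the surfactant protein C gene of AT2 cells, as at least 1% of their UMIs with at least 50 Sftpc UMIs. They were deep (median 26061 to 30078 UMIs) and 17.3% to 32.0% of them were called doublets. Their level was 7.88% to 9.01% of AT1 for Ager, 9.53% to 11.5% for Aqp5, 9.88% to 11% for Clic3 and 8.36% to 9.67% for Gprc5a. Hopx stood at 1.20% to 1.81%, Rtkn2 at 0.141% to 0.645%, Akap5 at 1.20% to 2.02%, Spock2 at 0.121% to 1.16% and Pdpn at 0.962% to 1.55%. The 5th percentile of Sftpc in classed AT2 cells was 12.8% to 16.7% of UMIs, far above the 1% asked of these barcodes. They were chosen by Sftpc after the values of the AT2 class had been seen, and none of the 9 genes was used to choose them. At day 1 the groups overlapped in such barcodes of the male library, where Hopx (12.4%) and Pdpn (12.1%) stood above Aqp5 (11.7%). Of these 791 male barcodes 78.6% were called doublets, and of the 1256 in the female library of day 1 30.9%. The part of doublets in the day 1 levels was not tested. In the female library of day 1 they lay close, with Aqp5 at 9.04%, Hopx at 8.46% and Akap5 at 8.30%.

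At day 1 the division differed between classes. In male AT2 cells (629 cells, 7.63% doublets) Clic3 stood at 16.8% of AT1, Gprc5a at 10.0% and Ager at 7.16%, but Aqp5 at 3.18%, below Hopx at 3.79% and beside Akap5 at 3.33%. Male neutrophils of day 1 stood at 2.76% of AT1 for Hopx and at 2.49% for Pdpn, beside 2.82% for Pdpn in male AT2 cells. For the other genes these neutrophils stood at 0.934% or less. The male Lyz1+ AT2 class of 1021 cells gave 19.0% for Clic3, 11.3% for Gprc5a, 9.27% for Ager, 5.5% for Aqp5, 4.93% for Hopx and 4.33% or less for the other 4, so that the groups did not overlap there. Of the 54 female AT2 cells of day 1, 43 (79.6%) were called doublets, so few cells are left without them. In those the groups overlapped: Hopx stood at 20.6% and Akap5 at 18.4%, above Ager at 16.5%. Aqp5 stood at 39.0%, Gprc5a at 30.4% and Clic3 at 29.6%, and Pdpn, Spock2 and Rtkn2 at 8.50% or less. In the female Lyz1+ AT2 class (407 cells, 24.3% doublets), taken without doublets, the groups did not overlap. Ager stood there at 9.67%, Aqp5 at 8.55%, Clic3 at 16.4% and Gprc5a at 10.5%, against 5.73% for Hopx, 4.76% for Akap5 and less for the other 3. Neutrophils held 36.6 and 48.6 CPM of Ager at day 1 against 9.98 to 12.2 at day 21. The day 1 values were likewise above those of day 21 for the other genes but Pdpn, at 1.53 to 3.08 CPM at day 1 and 1.64 to 3.13 at day 21.

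**Figure D2:**
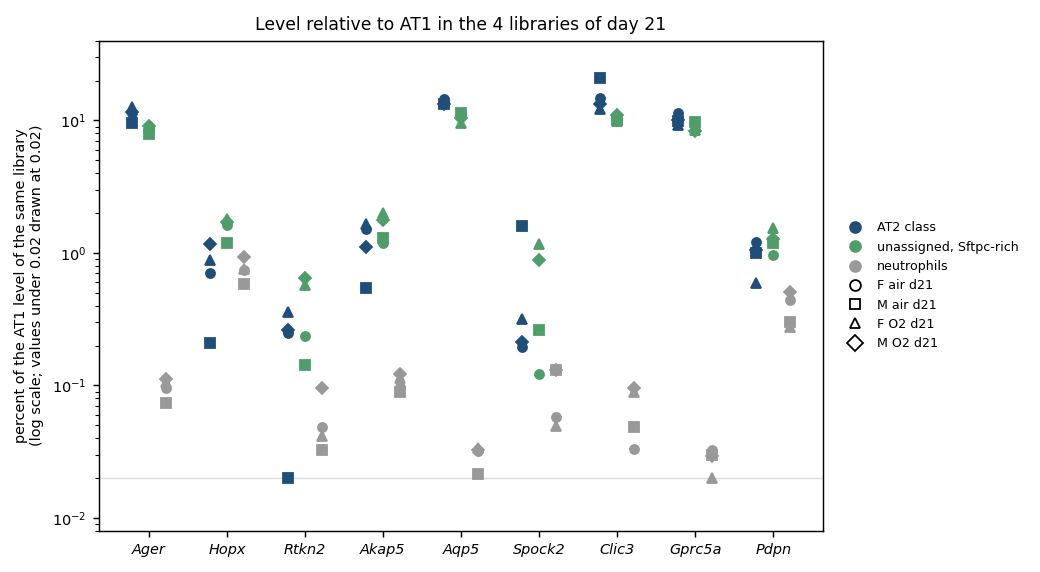
Level of each gene as a percentage of its AT1 level (Foxj1-holding cells left out) in the same day 21 library, on a log axis, for AT2 cells (blue), unassigned barcodes rich in Sftpc (green) and neutrophils (grey); marker shapes are the 4 libraries, and values under 0.02 are drawn at 0.02. Ager, Aqp5, Clic3 and Gprc5a lie between 7.88% and 20.8% in AT2 cells and in the Sftpc-rich barcodes, and the other 5 genes lie at 2.02% or less.

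The plot of levels relative to AT1 shows that 4 genes hold a position well above neutrophils in each library, that Hopx in AT2 cells lies among the neutrophil points, and that the male room air library with its 7 AT2 cells scatters most.

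Outside the epithelium, some of the genes had second places. Hopx was found at 1001 to 1434 CPM in the aerocyte capillary class (aCap) of the day 21 libraries, in 99.5% to 100% of its cells, and at 531 and 775 CPM at day 1. It also stood at 233 to 296 CPM in classical monocytes and at 158 to 211 CPM in natural killer cells at day 21. Per UMI of Ager the aCap class held 89.7 to 270 times as much Hopx as AT1 cells of the same library did. The same factor in neutrophils was 6.97 to 8.16 for Hopx and 1.03 to 1.20 for Akap5. The part of free RNA in these levels was not tested.

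Spock2 had its second place in myofibroblasts, at 102 to 172 CPM at day 21, with a UMI in 41.2% to 71.4% of cells. Pdpn had it in lymphatic endothelium, at 111 and 258 CPM in female and male room air (23 and 36 cells) and 51.0 and 108 in female and male hyperoxia (64 and 54 cells). Gprc5a was measured at 57.7 to 67.5 CPM in aCap and 13.9 to 30.9 in venous endothelium. Akap5 stood at 14.6 to 32.3 CPM in matrix fibroblasts and at 14.0 to 18.4 in alveolar macrophages, where the ratio of Akap5 to Ager was 6.15 to 39.3 times that in AT1. For Ager, Rtkn2, Aqp5 and Clic3 no such place was seen at day 21 among classes with at least 50 cells in a library: after AT1 and AT2, their highest mean was 35.4 CPM (matrix fibroblasts), 5.39 (matrix fibroblasts), 2.35 (lymphatic) and 7.0 (matrix fibroblasts). AT1 ranked first of 21 classes for all 9 genes at day 21, and first of 20 at day 1. At day 1 pericytes ranked second for Ager, at 674 and 1391 CPM, but 34.4% and 33.3% of them were called doublets and without these the values were 128 and 101.

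**Figure D3:**
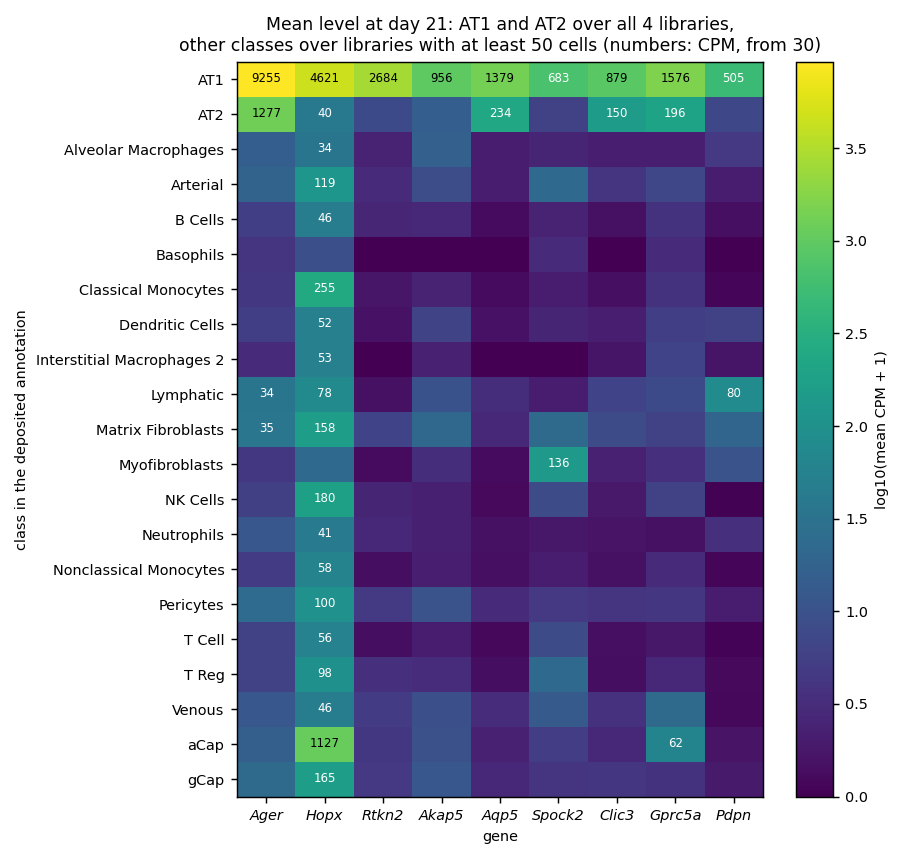
Mean level of each gene at day 21 in each class of the deposited annotation, coloured by log10(mean CPM + 1) with the CPM printed from 30 upward; AT1 and AT2 are means over all 4 libraries and the other classes over libraries with at least 50 cells. The AT1 row is highest in each column, and Hopx in aCap (1127 CPM) and Spock2 in myofibroblasts (136 CPM) stand out below the alveolar classes.

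The map of class means shows that Hopx is the gene with values of 30 CPM or more in most classes, whereas Rtkn2 and Akap5 reach it in AT1 alone.

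The place of the transcripts changed with age, as did the number of AT1 cells captured. AT1 cells held 74.0% and 61.6% of all Ager UMIs of the female and male libraries at day 1 and 20.8% to 32.7% at day 21, when barcodes without a class held 44.7% to 69.2%. The unassigned Sftpc-rich barcodes alone held 33.2% to 58.9% of Ager UMIs, 38.4% to 66.5% of Aqp5 UMIs, 27.1% to 48.9% of Clic3 UMIs and 22.2% to 41.6% of Gprc5a UMIs in the libraries of day 21. For Rtkn2 they held 2.44% to 5.34%, and AT1 cells kept 56.7% to 65.7%. Hopx UMIs lay mostly in classes other than AT1 and AT2 at day 21 (66.2% to 70.8%), with 4.26% to 10.8% in AT1, against 69.8% and 59.6% in AT1 at day 1. Such shares follow the number of cells captured in each class as well as the RNA per cell. AT1 cells numbered 2054 and 1765 at day 1 and 14 to 57 at day 21. Their median depth was 10294 and 9381 UMIs at day 1 and 15102 to 17973 at day 21. The part of each in the shares was not tested.

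**Figure D4:**
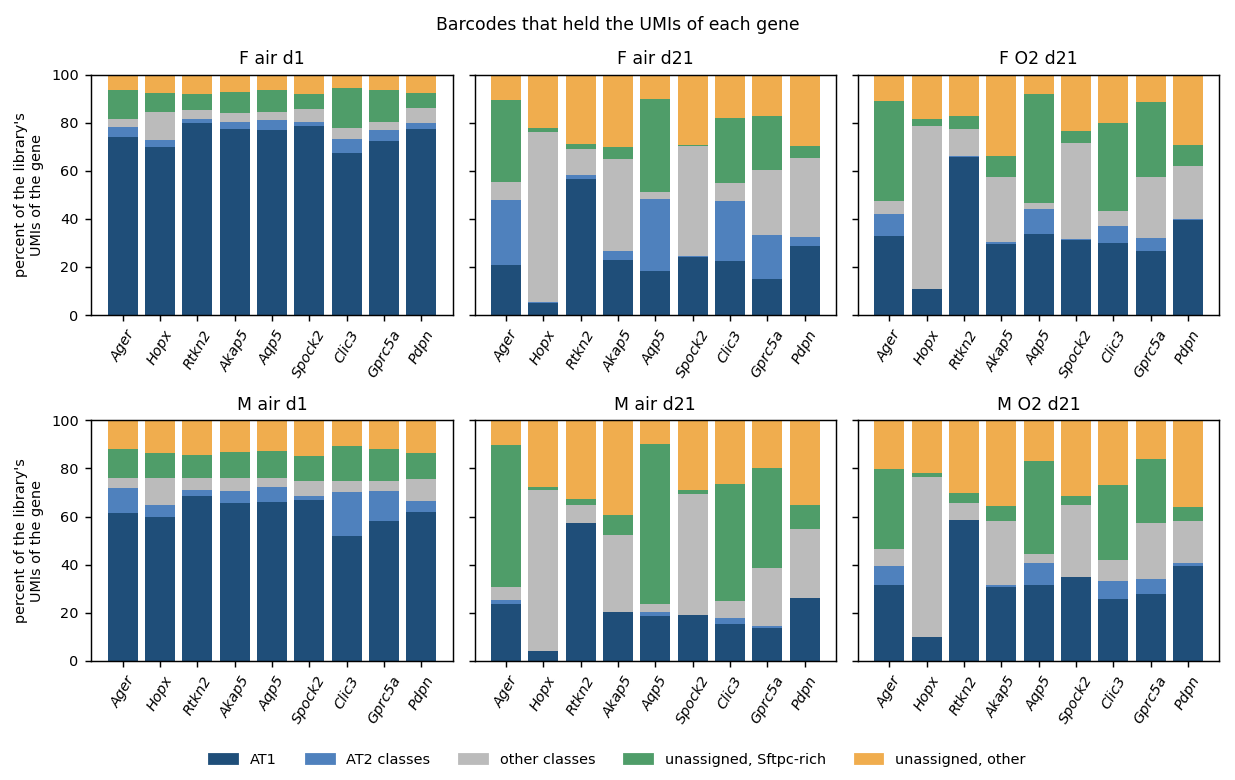
Share of each gene's UMIs in a library, in percent on the vertical axis, that lay in AT1 cells, AT2 classes, other classes, unassigned barcodes rich in Sftpc and other unassigned barcodes; each panel is 1 library. AT1 holds 61.6% or more of Ager at day 1 and at most 32.7% at day 21, and Rtkn2 keeps 56.7% or more in AT1 in each of the 6 libraries.

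The plot of where UMIs lay shows the share of Sftpc-rich unassigned barcodes large for Ager, Aqp5, Clic3 and Gprc5a, the 4 genes with AT2 levels, and at most 9.81% (Pdpn, male room air) for the other 5 at day 21.

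Across the 28 classes of both ages the genes moved together to different degrees. Pearson's r of log2(CPM + 1) was 0.99 between Ager and Aqp5 and 0.99 between Ager and Clic3, and lowest between Hopx and Pdpn (0.42) and Hopx and Spock2 (0.49). The 28 classes share libraries and free RNA, so these are descriptions. Of 8496 genes with at least 50 CPM in some class, the 10 most like the summed level of the 9 had r of 0.92 to 0.93 and included Sec14l3, Myh14, Krt8, Cldn18, Gipc2, Mal2, S100a14, Atp6v0a4 and Mab21l4. By Spearman's rank correlation 6 of the 10 were again among the first 10. Cldn18, the lung claudin of alveolar tight junctions, stood at 2768 CPM in AT1 and 945 in AT2, and Sec14l3 at 738 and 62.3.

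The first comparison asked how the genes changed from day 1 to day 21 in room air. Summed counts per class and library were tested with edgeR's quasi-likelihood test with sex as a covariate, and p-values were adjusted by the Benjamini-Hochberg method over all genes of a class. In AT1 cells, Akap5 was lower at day 21 (log2 difference -1.64, SE 0.440, adjusted p = 0.0498), the 1 of the 9 that was called, where 8.2% of 12799 genes were called. Without the Foxj1-holding cells 22.1% of 12469 genes were called, and 4 of the 9: Pdpn rose by 1.62 (SE 0.202, adjusted p = 3.36e-14) and Rtkn2 by 1.37 (SE 0.223, adjusted p = 2.08e-08), whereas Akap5 fell by 1.18 (SE 0.223, adjusted p = 2.24e-06) and Aqp5 fell by 0.72 (SE 0.220, adjusted p = 0.00746). Ager (0.23, SE 0.265), Hopx (0.22, SE 0.239), Spock2 (0.36, SE 0.204), Clic3 (-0.33, SE 0.210) and Gprc5a (-0.12, SE 0.215) did not pass, with adjusted p of 0.220 to 0.765 in the same edgeR test. With all AT1 cells, leaving out the female or the male library of day 1 left 13 and 10 genes called and none of the 9. Leaving out each library in turn from the fit without Foxj1-holding cells kept Akap5 and Rtkn2 called in 4 of 4 fits; Pdpn was lost without female room air of day 21 (1.57, adjusted p = 0.0548), and Aqp5 in 3 of 4 (adjusted p of up to 0.133).

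The fitted differences between the ages lie lower than the ratios of the CPM values, because edgeR's TMM scaling, which centres on the bulk of the genes, was used in the fit and not in the CPM. Without the Foxj1-holding cells the mean log2 ratio of CPM within a sex was 0.41 to 0.42 above the fitted difference for each of the 9 genes, and 0.43 above it with all AT1 cells. On the CPM scale the 4 genes that passed kept their direction, at 2.05 for Pdpn, 1.78 for Rtkn2, -0.77 for Akap5 and -0.30 for Aqp5. The sign was not the same on the scales for Gprc5a (0.29 in CPM, -0.12 fitted) and Clic3 (0.08 and -0.33), nor, with all AT1 cells, for Ager (0.20 and -0.23), Hopx (0.25 and -0.18) and Spock2 (0.33 and -0.10). With hyperoxia the scales differed by 0.01 to 0.02.

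The age of the mice cannot be told apart from how the libraries were counted, since the file headers name Cell Ranger 6.0.0 at day 1 and 7.0.1 at day 21, versions that differ in whether intronic reads are counted by default. Genes moved by intron length in the AT1 fit without Foxj1-holding cells: the median log2 difference was -0.86 over 501 genes without introns, -0.71 over 2237 genes with 1 to 5000 intronic bases, -0.36 over 3741 with up to 20000, 0.04 over 4065 with up to 80000 and 0.74 over 1922 with more. The 2 genes that fell, Akap5 and Aqp5, have 2439 and 1449 intronic bases, and the 2 that rose, Pdpn and Rtkn2, have 30317 and 74624. Beside the median of their own length class, Ager at 0.23 with 934 intronic bases stood above -0.71, Aqp5 at -0.72 stood at it, and Akap5 at -1.18 stood below it. Rtkn2 and Pdpn stood above 0.04. The part of intron counting in these differences was not tested.

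**Figure D5:**
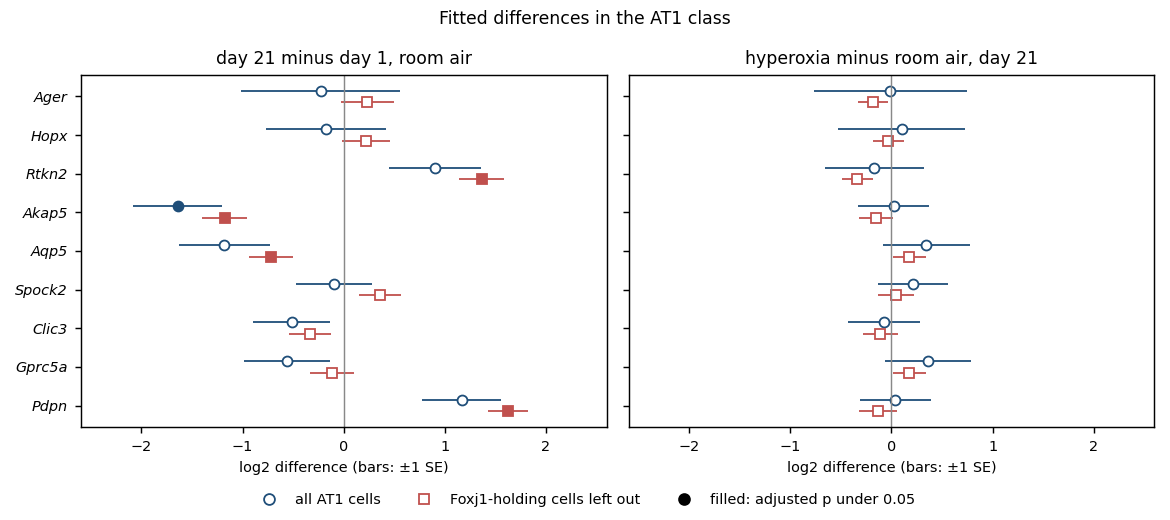
Fitted log2 differences of the 9 genes in AT1 cells from edgeR, day 21 minus day 1 in room air (left) and hyperoxia minus room air at day 21 (right), for all AT1 cells (circles) and without Foxj1-holding cells (squares); bars are 1 standard error each way and filled symbols have an adjusted p under 0.05. On the left Akap5 is filled in both readings and Aqp5, Rtkn2 and Pdpn in the second; on the right no symbol is filled.

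Standard errors in the plot of fitted differences shrink when the Foxj1-holding cells are out, for Ager from 0.785 to 0.265 in the age comparison.

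Other lists of the AT1 class moved as follows in the fit without Foxj1-holding cells. Of 24 other AT1 genes 9 rose and 4 fell, among them Igfbp2, a binding protein of insulin-like growth factors that marks mature AT1 cells (4.74, adjusted p = 3.50e-95), Sema3e (3.23), Col4a3 (1.47) and Vegfa (0.99), with S100a6 lower (-1.57). Of 12 genes of transitional epithelium 9 fell and 1 rose, for instance Krt8 (-2.58) and Krt19 (-1.90), keratins of cells between the AT2 and AT1 states. Of 16 regulators 8 fell, including Nkx2-1 (-0.89), Wwtr1 (-0.74), which encodes TAZ, and Klf5 (-0.87), and Tead1 rose (1.29). Of 15 AT2 genes 9 fell, with Sftpc at -4.07, and the summed AT2 list in AT1 cells went from 2669 and 3259 CPM at day 1 to 640 and 423 in female and male room air at day 21. Of 7 general epithelial genes 5 fell and 1 rose, of 5 endothelial and of 5 fibroblast genes 2 fell each, of 4 airway genes 2 fell, and of 5 immune genes Ptprc rose. A mesothelial list went from 966 and 864 CPM to 3.79 and 5.28. The part of doublets and free RNA in these falls was not tested, nor that of intron counting in the rises and falls of the lists. With all AT1 cells fewer AT1, transitional and regulator genes were called. Of 24 other AT1 genes 4 then rose and 0 fell. Of 12 transitional genes 5 fell and 0 rose, and of 16 regulators 2 fell (Gata6 and Id2) and 0 rose.

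In AT2 cells the 5 genes of the second group were called lower at day 21, in a fit that accepted 5 cells a library. Of these, Hopx, Akap5 and Rtkn2 were lower in both sexes. The group was drawn from AT2 levels of day 21, which this fit also uses, so a split between the groups here is no separate support for them. At day 1 the annotation also holds the Lyz1+ AT2 class, with 407 and 1021 cells against 54 and 629 in AT2, which has no cells at day 21 and is not in the fit. Hopx fell by 3.79 (SE 0.386, adjusted p = 1.53e-20), Akap5 by 3.75 (SE 0.390), Rtkn2 by 3.19 (SE 0.435), Spock2 by 4.75 (SE 0.605) and Pdpn fell by 1.71 (SE 0.619, adjusted p = 0.0331) in edgeR, 5 of 9 genes where 19.7% of 10051 genes were called. Ager (0.48, SE 0.321), Aqp5 (0.10, SE 0.315), Clic3 (-0.34, SE 0.300) and Gprc5a (-0.40, SE 0.304) did not pass, with adjusted p of 0.315 to 0.882. The sexes did not all go the same way: Spock2 went from 75.7 to 1.66 CPM in females but from 4.01 to 13.2 in males, and Pdpn from 30.7 to 7.99 and from 3.49 to 6.59, the male values of day 21 resting on 2 and 1 UMIs. Spock2 and Pdpn did not pass the filter on low counts in the fit of the day 21 libraries, and with 5 and 24 UMIs in female room air of day 21 they entered the age fit through the libraries of day 1, so their calls and their part in the count of 5 rest on the filter. Hopx (514 to 34.9 and 134 to 13.2), Akap5 (281 to 20.0 and 72.8 to 6.59) and Rtkn2 (83.6 to 8.99 and 15.6 to 0) were lower at day 21 in both. Of 24 other AT1 genes 15 fell and none rose in AT2 cells, such as Cav1 (-2.98), the caveolin of AT1 membranes, and Vegfa (-2.04). Of 15 AT2 genes 2 rose, Etv5 (1.22) and Lamp3, and 1 fell, Dlk1. Of 12 transitional genes 9 fell, and of 4 tested airway genes 3 fell (Scgb1a1, Scgb3a2 and Tppp3), with none higher in either list. RNA of other cell types moved in the same fit, not all one way: all 5 endothelial genes were called lower (median -2.81), as was the lymphatic gene Lyve1 (-4.56), and the summed mesothelial list in AT2 cells went from 119 and 13.0 CPM in female and male at day 1 to 1.33 and 0 in room air at day 21. Of 3 tested immune genes 2 were called higher, Cd52 and Tyrobp (list median 1.70), and the 1 tested fibroblast gene was not called. The part of foreign RNA in the falls of the 5 genes was not tested. The fit rests on thin libraries: the male library of day 21 held 7 AT2 cells and 79.6% of female AT2 cells of day 1 were called doublets. Without the female or without the male library of day 21 none of the 9 was called, with DESeq2 3, without doublets 3 (Hopx, Akap5 and Rtkn2) and without the sex covariate 2 (Hopx and Akap5), and without the female library of day 1 Pdpn stood at 0.93.

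The other classes were tested where each room air library held 50 cells or more, which left 10, none of them epithelial. There 67 of 81 pairs of gene and class were called, 65 lower and 2 higher at day 21, where 54.3% of 109029 pairs of all genes were called (28.6% higher and 25.7% lower). Of the pairs 73 were below 0 and their median was -2.88, with 0.01 over all genes. The filter on low counts passed 81 pairs over these 10 classes, but 61 over 14 classes in the fit of the day 21 libraries. Pairs low at day 21 could thus enter through the libraries of day 1. Aqp5 in neutrophils, for instance, stood at 5.23 to 10.3 CPM at day 1 and 0.360 to 0.614 at day 21. The count of pairs called lower and the median therefore rest in part on the filter. The 2 that rose were Hopx in aCap (0.85, SE 0.148, adjusted p = 6.41e-08) and Spock2 in myofibroblasts (2.74, SE 0.197, adjusted p = 4.19e-11) by edgeR. Hopx in aCap went from 775 and 531 CPM to 1050 and 1434, but DESeq2 did not call it (adjusted p = 0.271). Spock2 in myofibroblasts went from 24.1 and 20.1 CPM to 141 and 172 and was called in each alternative run, with adjusted p of up to 6.67e-04. The level in neutrophils moved with these falls: Ager in neutrophils went from 36.6 and 48.6 CPM at day 1 to 9.98 and 10.1 in room air at day 21, and AT1 cells from 2054 and 1765 to 32 and 14. Their part was not tested.

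The second comparison asked what early hyperoxia left behind at day 21. In AT1 cells no gene of 8181 passed in edgeR (0.0% called), 116 had an unadjusted p under 0.05 and DESeq2 called 2. Differences of the 9 genes ran from -0.17 (Rtkn2) to 0.36 (Gprc5a), none of them with an unadjusted p under 0.05, and for Ager the difference was -0.01 (SE 0.756, approximate 95% interval -1.49 to 1.47). Leaving out the Foxj1-holding cells narrowed the interval of Ager to -0.46 to 0.10 around -0.18, and that of Hopx to -0.33 to 0.26. Then 64 of 6511 genes were called (0.983%) and none of the 9; Rtkn2 had the lowest value (-0.34, SE 0.155, unadjusted p = 0.0296, adjusted p = 0.516). Akap5 stood at -0.15, Pdpn at -0.14, Clic3 at -0.11, Spock2 at 0.04, Aqp5 at 0.17 and Gprc5a at 0.18.

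The AT1 comparison changed with 1 library out, in fits of 3 libraries that can hold no sex covariate. Without female room air, in which 11 of 32 AT1 cells held Foxj1, the lowest differences of the 9 were those of Rtkn2 (-0.70), Ager (-0.69) and Hopx (-0.48). That fit sets the 14 cells of male room air against the 2 hyperoxia pools. It leaves 1 pool in room air, so only differences are given for it here. Calls over the fits without 1 library are given as ranges in the closing section. With the Foxj1-holding cells also out, Ager stood at -0.38. With all AT1 cells and any of the other 3 libraries left out, no gene was called, nor with all 4 libraries and no covariate. Within the sexes the levels of all 9 genes went up with hyperoxia in females and down in males, for Ager by a log2 ratio of 0.62 and -0.60, and without the Foxj1-holding cells 4 of 9 had opposite signs.

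Listed genes of other kinds moved in AT1 cells after the Foxj1-holding cells were out. Cdkn1a, the cell cycle inhibitor p21, was higher after hyperoxia (1.37, adjusted p = 0.00164, edgeR), the 1 of 8 tested transitional genes that was called. Of 7 tested AT2 genes 1 was called, Sftpd, surfactant protein D, which was higher (1.83). Of 5 endothelial genes 1 was called, Car4, which was higher (2.13). Of 5 immune genes 2 were called, Ptprc (-2.07) and Tyrobp (-2.32), both lower. The summed immune list stood at 652 CPM in room air and 31.3 in hyperoxia in females, and at 307 and 251 in males. The part of RNA of other cells in these differences was not tested.

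In AT2 cells 48 of 8759 genes were called (0.548%), and none of the 7 members that passed the filter (Spock2 and Pdpn did not). Of these 7, 2 had an unadjusted p under 0.05 in edgeR, as did 472 of the 8759 genes. The 2 were Hopx (0.82, SE 0.308, adjusted p = 0.418) and Clic3 (-0.45, SE 0.201, adjusted p = 0.721). Rtkn2 stood at 0.44, Aqp5 at 0.18, Gprc5a at -0.0016 and Akap5 at -0.03. Hopx in AT2 cells lay at 13.2 to 57.1 CPM at day 21, with 2 UMIs in male room air. Neutrophils held 36.4 to 46.0 CPM of Hopx at that age. DESeq2 called 1 gene in the class and no member. Ager in AT2 was 1204 and 1324 CPM in room air and 1321 and 1257 in hyperoxia, with a difference of 0.05 (approximate 95% interval -0.21 to 0.32). Of the lists, Cdkn1a was again higher (1.41, adjusted p = 5.31e-04), the AT2 lysozyme gene Lyz1 was lower (-1.57) and Cldn5, an endothelial claudin, was higher (1.86). The other listed genes called were S100a6 (-1.60), Scgb1a1 (1.08), the secretoglobin of airway club cells, and the endothelial cadherin Cdh5 (1.45). The summed endothelial list in AT2 cells measured 77.5 and 59.3 CPM in room air and 198 and 240 in hyperoxia.

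Outside the epithelium 14 classes had 50 cells or more in each day 21 library. Of 61 pairs of gene and class 5 were called, all higher in hyperoxia. Of 154767 pairs of all genes 2.28% were called in either direction (1.63% higher and 0.654% lower). Among the 5 is Hopx in myofibroblasts, which entered its fit through the hyperoxia libraries, as given below. The count of 5 and its place beside 2.28% thus rest in part on the filter on low counts. Ager rose in alveolar macrophages by 2.48 (SE 0.264, adjusted p = 9.36e-08), from 2.87 and 5.74 CPM in female and male room air to 22.6 and 26.0 in hyperoxia, and kept an adjusted p of 0.0120 or less in each alternative. Among these macrophages 24.3% and 17.2% were called doublets in hyperoxia and 2.30% and 2.87% in room air, and without doublets the values of Ager were 2.79 and 5.07 against 30.3 and 4.70, so that male hyperoxia fell back among room air. Neutrophils of the same libraries held 9.98 to 12.2 CPM of it. Of all genes tested in these macrophages 10.9% were called. Hopx in the same class rose by 0.75 (adjusted p = 9.50e-04), but without doublets it stood at -0.35 (adjusted p = 0.622), and DESeq2 (0.238) and equal numbers of cells (0.146) did not call it.

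The other 3 pairs were Hopx in myofibroblasts and Gprc5a and Ager in arterial endothelium. Hopx in myofibroblasts was 0 and 8.29 CPM in female and male room air and 30.7 and 48.4 in hyperoxia (3.09, SE 0.518, adjusted p = 3.34e-06, where 3.76% of genes were called), from 0 and 9 UMIs in room air and 26 and 38 in hyperoxia. The gene entered this fit through the hyperoxia libraries, and the fitted value with 1 library at 0 depends on the prior count. It was not called by DESeq2 (adjusted p = 0.260), without the sex covariate (0.204), without female room air (2.22, 0.618), without male room air (0.196) or without male hyperoxia (0.392). Gprc5a in arterial cells (1.48, SE 0.418, adjusted p = 0.0242) rested on 15 and 4 UMIs in room air and 33 and 30 in hyperoxia, and Ager there (0.83, SE 0.239, adjusted p = 0.0284) on 30 to 106 UMIs, where 2.12% of genes were called. Neither was called by DESeq2 or without the covariate, Gprc5a was lost without any of the 4 libraries (adjusted p of 0.227 to 1.00) and Ager without any but female hyperoxia (0.260 to 1.00). In the lymphatic class, tested with a minimum of 10 cells, Pdpn was lower in hyperoxia (-1.17, SE 0.305, adjusted p = 0.0306) and Hopx higher (2.42, adjusted p = 0.00877), where 7.51% of genes were called. Doublets made up 64.1% and 38.9% of the lymphatic class in hyperoxia and 21.7% and 19.4% in room air, and Pdpn without doublets stood at 0.18 (adjusted p = 0.998). Pdpn was lost without female hyperoxia (0.856) or male room air (0.683), and Hopx without female hyperoxia (0.260) and with DESeq2 (0.374).

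The third comparison set females against males over all 6 libraries, with age and exposure as covariates. In AT1 cells 2 of 9333 genes were called (0.0214%) and none of the 9; DESeq2 called 5 genes, and no member had an unadjusted p under 0.05 in edgeR. All 9 were lower in females when all AT1 cells were used, from -0.49 (Ager, SE 0.328) through Aqp5 (-0.41), Rtkn2 (-0.38), Akap5 (-0.37), Hopx (-0.28), Gprc5a (-0.25), Spock2 (-0.20) and Clic3 (-0.13) to -0.07 (Pdpn). So were 6 of 9 without the Foxj1-holding cells (0.123% of genes called, none of the 9), with values over the 9 from -0.21 (Ager, SE 0.110) to 0.23 (Pdpn, SE 0.158). In AT2 cells 9 of 9386 genes were called (0.0959%) and none of the 9, 8 of which were higher in females and 5 of which had an unadjusted p under 0.05; Rtkn2 (1.71, SE 0.365) and Akap5 (1.29, SE 0.275) both had an adjusted p of 0.277. Spock2 stood at 3.10, Pdpn at 1.56, Hopx at 0.94, Aqp5 at 0.89, Gprc5a at 0.38, Ager at 0.24 and Clic3 at -0.08. Genes of other cell types lay the same way: Msln, a mesothelial gene (2.87), and Lyve1 (2.57) were the listed genes called higher in females, both with an adjusted p of 0.0282 in edgeR, and the median of 5 endothelial genes was 1.41. Female AT2 cells of day 1, of which 79.6% were called doublets, held 3219 CPM of the 9 genes together against 1140 in males; the part of doublets was not tested apart from the fit without them, which called 1 of the 9. Without the female or without the male hyperoxia library 6 of the 9 were called. The share of all genes called in those fits is not given here, so this count is not read as a result about the 9. In the other classes 1 of 80 pairs was called, Ager in arterial endothelium (-0.73, SE 0.131, adjusted p = 0.0260), against 0.105% of all pairs (0.0603% lower and 0.0452% higher in females). It was lost with DESeq2 (0.818), without doublets (-0.23, adjusted p = 0.808), without the Xist-free cells of female hyperoxia (0.0771), without the female or the male library of day 1 (0.122 and 0.135) and without the covariate.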

How the data were processed

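Single cells of 6 pools of dissociated, live-sorted lung were sequenced with 10x Genomics 3′ chemistry. The authors deposited whole-number UMI counts per gene and barcode, made per the file headers with Cell Ranger 6.0.0 (day 1) and 7.0.1 (day 21); the submitters' processing notes name Cell Ranger 6.0.0, Seurat 4.1.1 and the build mm10. Whether intronic reads were counted is not given in the sources used here. Classes are those of the authors' deposited annotation. Libraries held 122173482 to 163649658 UMIs in 10533 to 14968 barcodes.

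Counts were summed per class and library and tested with edgeR 4.0.16 (R 4.3.3; TMM scaling, filterByExpr, quasi-likelihood F test, Benjamini-Hochberg adjustment, threshold 0.05). Sex was the covariate for age and exposure, and age with exposure for sex. A fit of 4 libraries leaves 1 residual degree of freedom, so the spread is borrowed across genes, and a fit of 3 libraries drops the sex covariate. Classes needed 50 cells in each library, AT1 cells 10 and AT2 cells 5, and other classes 10 where said. Approximate 95% intervals are the difference with 1.96 standard errors each way. Doublets were called with Scrublet in scanpy 1.11.5 and kept unless stated. Shares of cells were also taken after thinning cells to 2000 UMIs and leaving out shallower ones, and a count of 0 allows up to 3 UMIs. Intervals cover counting error only. Of the genes 99.8% matched GENCODE M21 by Ensembl ID.

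Fits were repeated with equal numbers of cells, with a 10-cell minimum, with a stricter cell filter (1000 genes, 10% mitochondrial UMIs) and without doublets, Xist-free cells of female hyperoxia or any 1 library. They were also repeated with DESeq2 1.42.0 in place of edgeR, without the covariate, without the low-count filter and with upper-quartile scaling. The fits of AT1 and AT2 cells with their lower minimums, and those without cells holding 5 or more Foxj1 UMIs, were chosen after seeing the data. The scripts were tested on simulated data. All 9 genes are named in each comparison of alveolar cells. Of the other listed genes called in alveolar cells some are named, and other genes are the 10 most like the 9 across classes, of which 1 is not reported here. Members and lists were chosen with earlier results of these data known.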

Additional observations from a re-analysis of the deposited data

Results flagged for a closer look

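In AT1 cells the level after hyperoxia over that in room air at day 21 had opposite signs in the sexes for all 9 genes. As log2 ratios of CPM, Ager stood at 0.62 in females and -0.60 in males, Hopx at 0.84 and -0.59, and Rtkn2 at 0.37 and -0.66. Akap5 stood at 0.35 and -0.27, Aqp5 at 0.89 and -0.16, and Spock2 at 0.60 and -0.13. Clic3 stood at 0.29 and -0.40, Gprc5a at 0.84 and -0.077, and Pdpn at 0.49 and -0.37. Each sign rests on 1 library against 1 and the difference between the sexes was not tested. Female room air held Foxj1 in 11 of 32 AT1 cells, and without such cells 4 of the 9 genes had opposite signs (Hopx, Akap5, Spock2 and Clic3).

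Barcodes without a class, which enter no fit, held UMIs of Ager. Their share of a library's Ager UMIs was 18.6% and 24.1% in female and male at day 1, 44.7% and 69.2% in female and male room air at day 21, and 52.6% and 53.4% in female and male hyperoxia. Their share of all UMIs was 31.1% and 27.8% in female and male at day 1, 26.8% and 39.8% in room air at day 21, and 37.2% and 37.8% in hyperoxia. The share of Ager was below that of all UMIs in both libraries of day 1 and above it in the 4 libraries of day 21.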

How the results depend on the processing

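The number of cells limits these comparisons: the AT1 class of day 21 rests on 14 to 57 cells a library and male room air on 7 AT2 cells. Each group is 1 pool for each sex, so the fits of age and of hyperoxia leave 1 residual degree of freedom and such a fit without 1 library drops the sex covariate and assumes that the remaining lone pool varies like the others. The replicate block of the age and hyperoxia fits is the sex of the pool, the only pairing the labels give. In the following, counts are genes past the adjusted threshold and the cause of a change was not tested.

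Without the replicate block the count over all classes in the hyperoxia comparison went from 3536 to 1590 and that of pairs of a member and a class from 5 to 2. The same change took the AT1 genes called with age from 1050 to 1916, the AT2 genes from 1978 to 1267 and the AT2 members from 5 to 2. Dropping the covariate of the sex fit, which is age with exposure, took the count over all classes from 119 to 13, the pairs from 1 to 0, the AT1 genes from 2 to 0 and the AT2 genes from 9 to 1. The AT1 log2 differences with hyperoxia that changed sign without the block were Hopx (0.10 to -0.0033), Akap5 (0.02 to -0.031) and Pdpn (0.04 to -0.023).

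DESeq2 called 1134 over all classes with hyperoxia, 1 pair, 2 AT1 genes and 1 AT2 gene, and 89.0% of its calls over all classes were higher against 71.4% by edgeR. With age it called 30356 over all classes against 59221, 2 AT1 members against 1, and 687 AT2 genes with 3 members, and 67.8% of its AT2 calls were higher against 55.1%. By sex it called 0 pairs and 5 AT1 genes. Akap5 in AT1 with hyperoxia stood at -0.014.

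Without the Foxj1-holding cells the AT1 genes called were 64 with hyperoxia, 2753 with age, of which 4 were members, and 10 by sex. The sign turned with hyperoxia for Hopx (-0.032), Akap5 (-0.15) and Pdpn (-0.14), with age for Ager (-0.23 to 0.23), Hopx (-0.18 to 0.22) and Spock2 (-0.10 to 0.36), and by sex for Spock2 (0.083), Gprc5a (0.0046) and Pdpn (0.23). With equal numbers of cells the count over all classes with hyperoxia was 2317, the AT1 members called with age 2, the pairs called by sex 2 and the AT1 genes 0. In AT1 the values that then turned were, with hyperoxia, Ager (-0.01 to 0.012), Hopx (-0.012) and Akap5 (-0.32), with age Ager (0.25), Hopx (0.26) and Spock2 (0.13), and by sex Hopx (0.052) and Akap5 (0.11).

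Without doublets the counts were 2024 over all classes with hyperoxia, 1233 AT2 genes with 3 members with age, and by sex 0 pairs, 1 AT1 gene and 1 AT2 member. Values that turned were, with hyperoxia, Ager in AT1 (0.0017), Pdpn in the lymphatic class (-1.17 to 0.18) and Hopx in alveolar macrophages (0.75 to -0.35), and Pdpn in AT1 by sex (0.0060). Without the Xist-free cells of female hyperoxia 0 pairs were called by sex. The stricter cell filter left 0 AT1 members called with age, and a minimum of 10 cells gave 260 calls by sex over all classes.

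With no filter on low counts the hyperoxia comparison gave 6208 calls, 8 pairs and 39 AT1 genes, the age comparison 2046 AT1 genes with 2 members, and sex 933 calls, 4 pairs and 13 AT1 genes; Ager in AT1 with hyperoxia stood at 0.046. Upper-quartile scaling gave 1834 AT1 genes and 2 members with age and Ager at 0.056 with hyperoxia, and moved the median age difference over all classes from 0.01 to -0.14. Of its age calls over all classes 44.1% were higher at day 21, against 52.7% in the main fit, so the larger share changed direction. Ranking classes by Spearman's rank correlation left 6 of the 10 genes most like the members.

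Leaving out 1 library at a time, with or without the Foxj1-holding cells for AT1, gave with hyperoxia 2317 to 4161 calls over all classes, 3 to 5 pairs, 0 to 662 AT1 genes with 0 to 3 members, and 8 to 129 AT2 genes. With age it gave 10 to 4367 AT1 genes with 0 to 4 members and 83 to 1955 AT2 genes with 0 to 6 members. By sex it gave 338 to 682 calls over all classes, 0 to 6 pairs, 0 to 73 AT1 genes, and 4 to 308 AT2 genes with 0 to 6 members. The AT1 log2 differences with hyperoxia ran from -0.69 (Ager), -0.48 (Hopx), -0.70 (Rtkn2), -0.41 (Akap5), -0.21 (Aqp5), -0.25 (Spock2), -0.43 (Clic3), -0.098 (Gprc5a) and -0.44 (Pdpn), each lowest without female room air, to 0.67, 0.71, 0.38, 0.47, 0.91, 0.69, 0.30, 0.83 and 0.53, each highest without male room air. Those with age ran from -0.94 to 0.41 for Ager, -0.80 to 0.38 for Hopx and -0.61 to 0.59 for Spock2, and for Pdpn in AT2 from -1.82 to 0.93. Those by sex ran from -0.59 to 0.13 for Hopx, -0.50 to 0.20 for Spock2, -0.32 to 0.12 for Clic3, -0.43 to 0.032 for Gprc5a and -0.47 to 0.37 for Pdpn.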
